A study of Mus musculus with 28 samples.

Results

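Mast cells carry a small set of transcripts that few other cells make, and 7 of them were followed here in developing mouse skin: the chymases Mcpt4 and Cma1, the tryptases Tpsb2 and Tpsab1, the carboxypeptidase Cpa3, the histidine decarboxylase Hdc and the IgE receptor beta chain Ms4a2. They were chosen by symbol among the 16593 genes with a probe on the array. The platform annotation gives them 10 of the 25697 probes, and 9 of these, from 6 of the genes, were among the 12834 probes detected on at least 6 arrays and tested. All probes of all members are accounted for. Bead signals of dorsal skin RNA were measured on 28 arrays in 4 groups, all of a mixed C57/BL6;129Ola strain background: 6 mutants and 6 controls at 15 days of age (P15), and 6 mutants and 10 controls at 10 days (P10). The mutants were K14-cre; Gab1fl conditional mutants, and the labels give no genotype for the controls beyond that word. Gab1 is a docking protein that links receptor tyrosine kinases to their signalling pathways. The K14 promoter drives Cre in basal keratinocytes and in the outer layers of the hair follicle, and mast cells are not among the cells in which it is known to act. No treatment is named.

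Mast cells develop from blood progenitors, settle in the dermis and fill their granules with proteases bound to heparin and with histamine. On binding of antigen to IgE held by the high-affinity IgE receptor, they release these stores. Skin mast cells of the mouse belong to the connective tissue type, which is known for Mcpt4, Cma1 (mouse mast cell protease 5), the tryptases and Cpa3, while Mcpt1 and Mcpt2 belong to the mucosal type.

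The median raw signal per array ran from 53.2 to 172.3 and the number of detected probes from 8836 to 13610, and P15 mutant 5 stood apart with the brightest median and the fewest detected probes. Gab1 was 2.51-fold lower in P15 mutants than in P15 controls (adjusted p = 2.97e-09) and 2.47-fold lower in P10 mutants than in P10 controls (adjusted p = 1.4e-08). P10 mutants lay on slides 1 and 2 beside 6 P10 controls, and P15 mutants and P15 controls on slides 3 and 4 beside the other 4 P10 controls, so each difference between mutants and controls below is taken within slides. Within a slide the mutants always took the first 3 positions, so genotype and position cannot be told apart. Every adjusted p is from limma with Benjamini-Hochberg adjustment over all 12834 probes, the threshold is 0.05, and signals are normalized log2 values. In whole skin, a difference in the number of mast cells and one in the RNA per mast cell cannot be told apart.

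Part of the mast cell transcripts rose in the mutants at each age. At P15, 3 of the 10 probes were called higher, for Hdc, Cma1 and Tpsb2, where 8.94% of all tested probes were called higher. At P10, 8 of the 10 probes were called higher, at least 1 for each of Mcpt4, Cma1, Tpsab1, Tpsb2, Cpa3 and Hdc, where 8.66% of all tested probes were called higher. This count includes Tpsab1, which passed the detection filter mainly through the P10 mutants themselves, and without it 7 probes were called. None was called lower in mutants, where 10.6% of all tested probes were called lower at P15 and 8.83% at P10. In either direction 19.5% of all tested probes were called at P15 and 17.5% at P10. The median difference of all tested probes was 0.02 on the log2 scale at P15 and -0.02 at P10. With each array left out in turn, the count ran from 2 to 5 at P15 and from 5 to 8 at P10. The 5 at P15 came without P15 mutant 3, and the 5 at P10 without P10 control 6. Between P10 and P15 the chymase, carboxypeptidase and Tpsb2 transcripts fell in controls, whereas Hdc differed by -0.06 ± 0.20 (log2 ± SE) and was not called.

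Promoter sequences of 5 of the 7 members were in the RefSeq table of the build GRCm38.p6, and 4 of them are shown because they belong to detected members, those that fell with age (Mcpt4, Cma1, Cpa3) and the one that was not called to do so (Hdc). Each is the 250 bases before the annotated transcription start, read 5′ to 3′ on the gene's strand, with capitals on every match, on either strand, to AGATAA or AGATAG or to the same words with T as the first letter. Such GATA words are the letters that the GATA family of transcription factors, which mast cells need for their development, is known to prefer. Mcpt4 lies at chr14:56062311-56062560, Cma1 at chr14:55944676-55944925, Cpa3 at chr3:20242182-20242431 and Hdc at chr2:126618679-126618928, all on the minus strand.
Mcpt4: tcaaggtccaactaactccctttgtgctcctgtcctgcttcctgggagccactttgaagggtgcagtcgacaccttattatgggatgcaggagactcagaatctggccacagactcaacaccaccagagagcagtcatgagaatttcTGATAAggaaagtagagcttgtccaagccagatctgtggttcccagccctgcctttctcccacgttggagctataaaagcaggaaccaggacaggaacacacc
Cma1: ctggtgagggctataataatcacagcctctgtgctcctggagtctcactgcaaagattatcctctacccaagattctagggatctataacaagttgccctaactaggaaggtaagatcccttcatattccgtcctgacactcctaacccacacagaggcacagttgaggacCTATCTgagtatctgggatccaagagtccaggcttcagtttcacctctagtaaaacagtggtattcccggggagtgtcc
Cpa3: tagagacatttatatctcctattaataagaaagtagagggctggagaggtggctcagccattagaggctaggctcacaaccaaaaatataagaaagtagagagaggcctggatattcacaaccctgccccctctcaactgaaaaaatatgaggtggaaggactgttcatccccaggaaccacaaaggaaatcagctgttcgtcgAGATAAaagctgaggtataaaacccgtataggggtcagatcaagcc
Hdc: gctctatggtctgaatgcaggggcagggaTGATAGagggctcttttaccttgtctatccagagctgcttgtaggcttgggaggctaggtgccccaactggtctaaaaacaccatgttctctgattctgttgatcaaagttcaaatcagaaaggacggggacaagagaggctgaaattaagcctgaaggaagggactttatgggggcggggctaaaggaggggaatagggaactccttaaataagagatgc

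Each of these held 1 GATA word, nearest the start in Cpa3 (46 bases before it), then Cma1 (79), Mcpt4 (103) and Hdc (221). The word in Cma1 was on the opposite strand, and it is printed there as its reverse complement. The Ms4a2 promoter, not printed since that gene was not detected, held 3. Of 32851 promoters of the same length 26.5% held such a word. The word TATAAA, on the gene's strand, stood 32 bases before the start in Mcpt4 and 31 in Cpa3, was in neither Cma1 nor Hdc, and was found in 7.59% of all promoters. The E-box word CACGTG and its variant CATGTG, searched on either strand, were in none of the 5 and in 17.6% of all promoters. These are matches of letters in a window and do not show that a factor binds there.

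**Figure D1:**
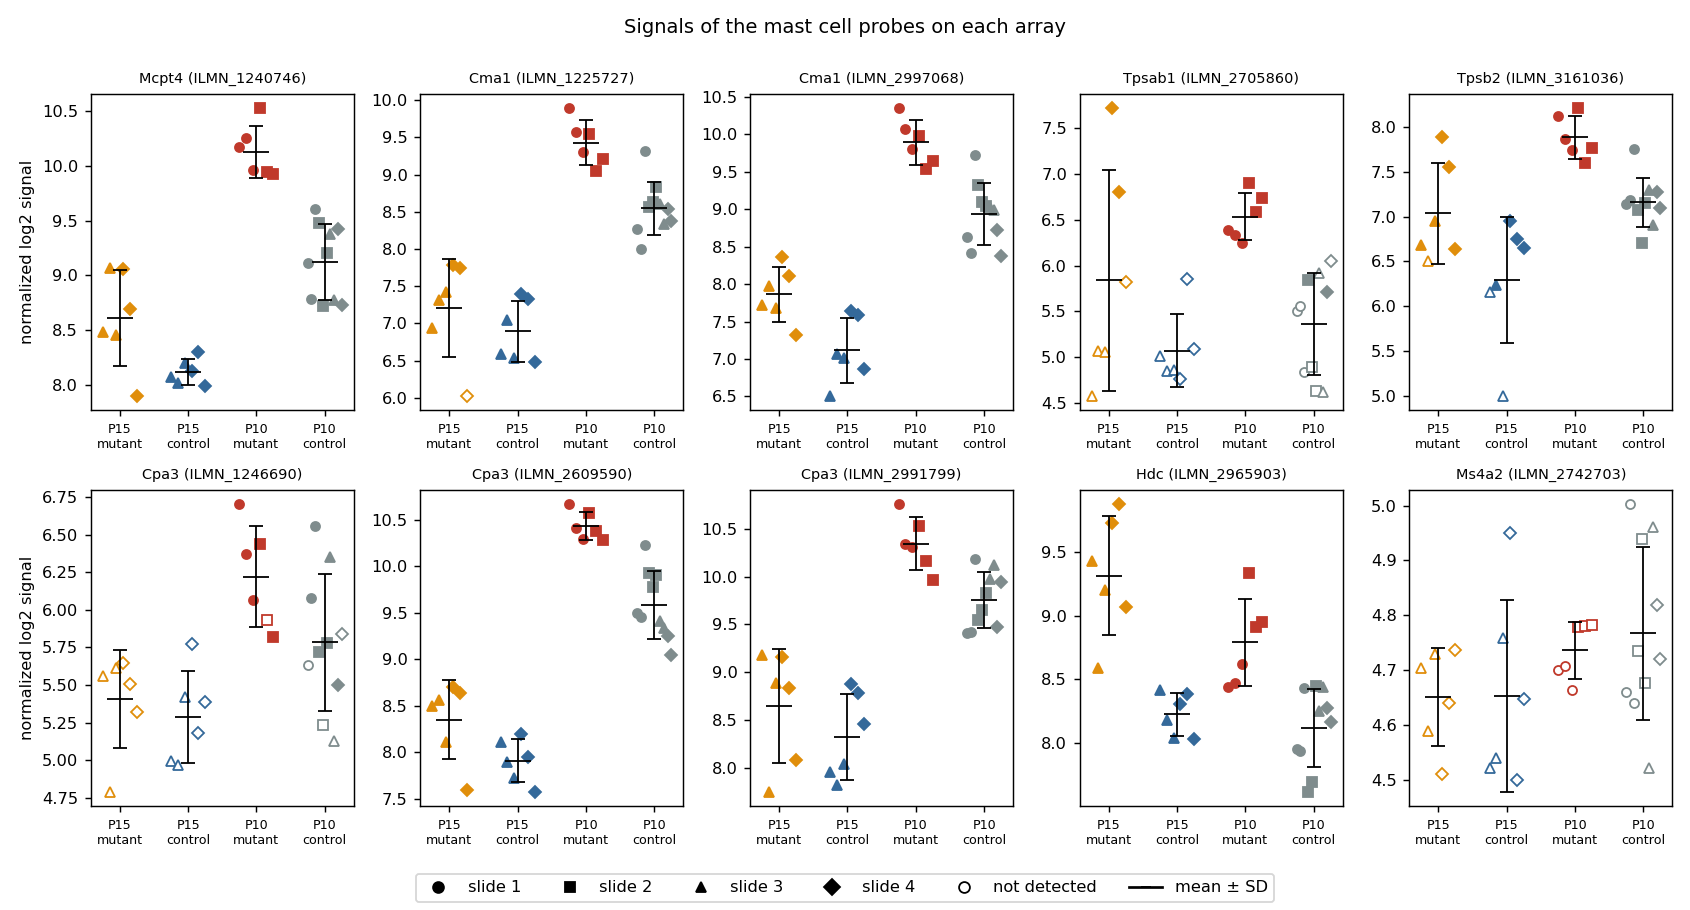
Normalized log2 signals (y axis) of the 10 probes on each array, with the 4 groups along the x axis; marker shapes give the slide, open markers an array on which the probe was not detected, and bars the mean ± SD of the group. Hdc was above all P15 controls on every P15 mutant array, while the group means of Mcpt4, Cma1 and Cpa3 were highest in P10 mutants and lowest in P15 controls, and Ms4a2 was detected on 0 arrays.

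Mcpt4 encodes a chymase, a serine protease that cuts after aromatic residues, and it is the main chymotrypsin-like protease of mouse connective tissue mast cells. Its signal in P15 mutants was 7.90 at the lowest, 8.59 at the median and 9.07 at the highest, against 7.99, 8.10 and 8.30 in P15 controls. Of the P15 mutants 5 lay above every P15 control and 1, mutant 3, below them all. The difference of 0.49 ± 0.18 (log2 ± SE) did not pass the threshold (adjusted p = 0.061). In P10 mutants the signal was 9.92, 10.06 and 10.52, against 8.72, 9.16 and 9.60 in the 6 P10 controls on the same slides. The groups did not overlap, and Mcpt4 was 1.97-fold higher in P10 mutants (log2 difference 0.98 ± 0.18, adjusted p = 0.00063). The difference was 0.96 on slide 1 and 0.99 on slide 2, each past the threshold when fitted alone.

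Cma1, the gene of mouse mast cell protease 5, encodes an alpha-chymase that in the mouse has the specificity of an elastase, and it was measured by 2 probes. Probe ILMN_2997068 read 7.33, 7.85 and 8.36 (lowest, median, highest) in P15 mutants, against 6.51, 7.04 and 7.64 in P15 controls. The groups overlapped, with 5 of the 6 mutants above the highest control. Its difference of 0.75 ± 0.22 was called (1.68-fold higher in P15 mutants, adjusted p = 0.0161). Probe ILMN_1225727 gave 0.31 ± 0.25 at P15 (adjusted p = 0.407), so the probes of Cma1 differed in their call at that age. At P15 this probe was undetected in mutant 3 alone. In P10 mutants probe ILMN_2997068 read 9.53, 9.89 and 10.35, against 8.42, 9.07 and 9.73 in P10 controls of the same slides. Only P10 control 7, at 9.73, reached into the range of the mutants. Cma1 was 1.81-fold higher in P10 mutants by this probe (adjusted p = 0.0077) and 1.77-fold higher by the other (adjusted p = 0.0219).

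The tryptases are trypsin-like proteases stored as tetramers on heparin, and Tpsb2 (mouse mast cell protease 6) is the abundant one of mouse skin. Its signal was 6.50, 6.81 and 7.89 in P15 mutants, with 5 of 6 arrays detected, against 4.99, 6.44 and 6.95 in P15 controls, with 4 of 6 detected. The groups overlapped, the highest values being those of P15 mutants 1 and 2 on slide 4. Tpsb2 was called 1.68-fold higher in P15 mutants (log2 difference 0.75 ± 0.21, adjusted p = 0.0145), or 1.48-fold where each undetected control was set to the lowest signal detected on its own array. In P10 mutants it was 7.60, 7.82 and 8.21, against 6.71, 7.15 and 7.75 in P10 controls of the same slides. P10 control 7 was again the one control within the mutants' range. The difference of 0.72 ± 0.21 was called (1.64-fold higher in P10 mutants, adjusted p = 0.021).

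Tpsab1 (mouse mast cell protease 7) is the second tryptase gene, and the RefSeq table lists it as a transcribed pseudogene in the C57BL/6J assembly. The labels do not say which allele each mouse of the mixed background carried. Its probe was detected on 10 of the 28 arrays: 2 of 6 P15 mutants, 0 of 6 P15 controls, 6 of 6 P10 mutants and 2 of 10 P10 controls. It passed the detection filter mainly through the P10 mutants, so its call at P10 is given as a description and not as support for the others. The 2 P15 mutants detected were mutants 1 and 2, at 7.71 and 6.80, and the 3 P15 mutants of slide 3 lay at 4.58 to 5.07. At P15 the difference was 0.77 ± 0.30 (adjusted p = 0.078), and with every P15 control below detection no fold is given. In P10 mutants the signal was 6.25, 6.48 and 6.90, against 4.63, 5.20 and 5.85 in P10 controls of the same slides, of which 1 of 6 was detected. The groups did not overlap. The fitted difference was 1.31 ± 0.30 (2.49-fold higher in P10 mutants, adjusted p = 0.00385), or 1.62-fold where undetected controls were set to the lowest signal detected on their array.

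Cpa3, mast cell carboxypeptidase A, removes C-terminal hydrophobic residues and acts beside the chymases in the granule. Of its 3 probes ILMN_2609590 and ILMN_2991799 were detected on all 28 arrays, and ILMN_1246690 on 11 arrays, all of P10. Probe ILMN_2609590 read 7.59, 8.53 and 8.70 in P15 mutants, against 7.57, 7.92 and 8.19 in P15 controls. P15 mutants 3 and 6 lay within the range of the controls and the other 4 above it, and the difference of 0.44 ± 0.16 missed the threshold (adjusted p = 0.0566). Probe ILMN_2991799 gave 0.33 ± 0.22 at P15 (adjusted p = 0.325). In P10 mutants probe ILMN_2609590 read 10.28, 10.39 and 10.67, against 9.45, 9.84 and 10.23 in P10 controls of the same slides, with no overlap. Cpa3 was 1.55-fold higher in P10 mutants by this probe (adjusted p = 0.0082) and 1.59-fold higher by ILMN_2991799 (adjusted p = 0.0369). By ILMN_2991799 P10 control 7, at 10.19, lay within the mutants' range of 9.97 to 10.76. That call held in 20 of the 28 fits that each left out 1 array. The third probe gave 0.39 ± 0.20 at P10 (adjusted p = 0.183).

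Hdc encodes histidine decarboxylase, which makes histamine from histidine in a single step. Its signal in P15 mutants was 8.59, 9.31 and 9.88, against 8.03, 8.24 and 8.41 in P15 controls. The groups did not overlap, and Hdc was 2.13-fold higher in P15 mutants (log2 difference 1.09 ± 0.18, adjusted p = 0.00011). The difference was 0.86 on slide 3 and 1.32 on slide 4, where the adjusted p fitted on slide 3 alone was 0.0992. In P10 mutants the signal was 8.44, 8.77 and 9.34, against 7.62, 7.94 and 8.45 in P10 controls of the same slides. The highest control lay just inside the range of the mutants, and Hdc was 1.72-fold higher in P10 mutants (log2 difference 0.78 ± 0.18, adjusted p = 0.00425). The slides differed in the size of this difference. Mean signals were 8.51 in P10 mutants against 8.10 in P10 controls on slide 1, and 9.07 against 7.92 on slide 2.

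Ms4a2 encodes the beta chain of the high-affinity IgE receptor, which amplifies its signal. Its probe was not well above background on any of the 28 arrays, so its level and difference are not given. Fcer1a, the IgE-binding alpha chain, was likewise detected on 0 arrays. Fcer1g, the gamma chain that other Fc receptors share, was detected on 21 arrays and did not pass the threshold. Its difference was -0.36 ± 0.85 at P15 (adjusted p = 0.807) and 0.02 ± 0.85 at P10 (adjusted p = 0.991). With SEs this wide, these values do not show that it was unchanged. Of 14 genes listed for the IgE receptor and its signalling 13 had a probe and 4 were tested, and 0 were called between mutants and controls at either age.

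**Figure D2:**
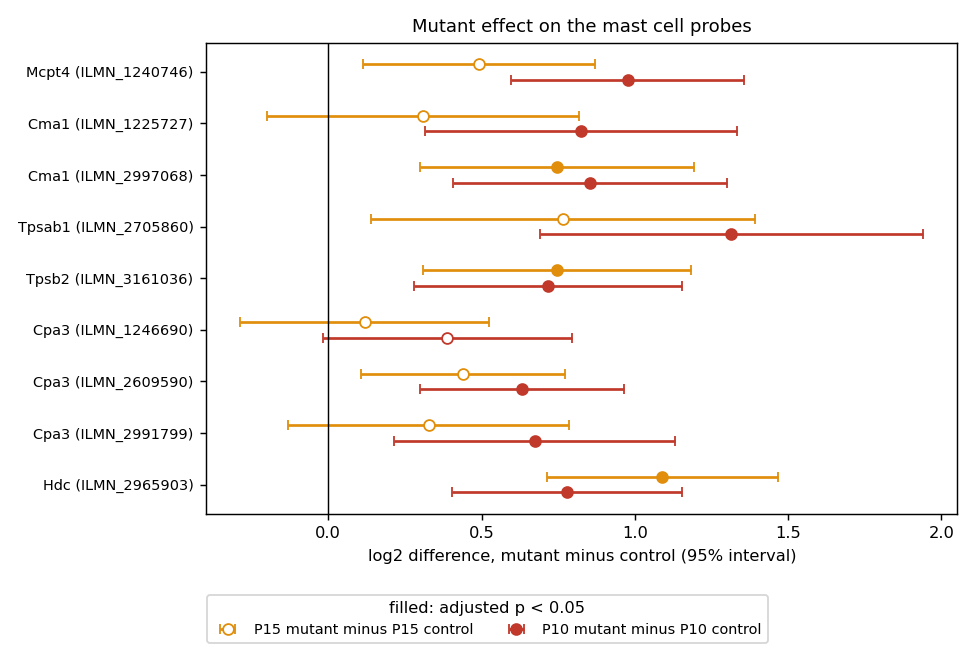
Log2 difference, mutant minus control (x axis), of the 9 tested probes (y axis) at P15 and at P10, with bars for the 95% interval and filled points for an adjusted p below 0.05. All points lie right of 0; Hdc stands at 1.09 at P15. The P10 point of Tpsab1 (1.31) is set against controls of which 1 of 6 was detected, and falls to 0.70 where the undetected ones are set to the lowest detected signal.

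Whether the mutant difference itself changed with age was tested as the P15 difference minus the P10 difference. It was called for 0 of the 10 probes, with adjusted p from 0.349 to 0.98, where 3.26% of all tested probes were called (1.61% higher, 1.66% lower) and 2192 had an unadjusted p below 0.05. None of the 9 tested member probes had an unadjusted p below 0.05. For Mcpt4 the change was -0.48 (95% interval -1.02 to 0.05) and for Hdc 0.31 (-0.22 to 0.84), and both intervals hold 0.

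Age was compared within slides 3 and 4, in the 6 P15 controls against the 4 P10 controls there. In P15 controls 6 of the 10 probes were called lower, where 10.7% of all tested probes were called lower, and 0 were called higher, where 10.5% were (21.2% in either direction). Cma1 fell most, being 3.17-fold lower in P15 controls by probe ILMN_2997068 (adjusted p = 3.13e-05). Its values in the P15 controls were 6.51, 7.04 and 7.64 (lowest, median, highest), against 8.72, 8.37, 9.03 and 9.00 in P10 controls 1, 2, 3 and 4. Every P15 control lay below every P10 control. Cpa3 was 2.94-fold lower in P15 controls by probe ILMN_2991799 (adjusted p = 8.55e-05) and 2.55-fold lower by ILMN_2609590 (adjusted p = 1.06e-05). Mcpt4 was 1.94-fold lower (adjusted p = 0.00167) and Tpsb2 1.81-fold lower (adjusted p = 0.0118). Tpsab1 had a log2 difference of -0.50 (adjusted p = 0.316), with no P15 control detected.

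Hdc was not called with age in controls. It read 8.03, 8.24 and 8.41 in P15 controls, against 8.27, 8.17, 8.25 and 8.44 in P10 controls 1, 2, 3 and 4. These ranges overlapped over most of their length, and the difference was -0.06 (95% interval -0.48 to 0.36, adjusted p = 0.878). The intervals of Cma1 (-2.16 to -1.16 by probe ILMN_2997068) and Cpa3 (-2.07 to -1.04 by ILMN_2991799) lie wholly below that of Hdc. A difference between genes was not itself tested.

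P15 and P10 mutants shared no slide, and their difference rests on the P10 controls that link the slides. In P15 mutants 5 of the 10 probes were called lower, where 6.03% of all tested probes were called lower, and 0 higher, where 5.45% were (11.5% in either direction). Cma1 was 3.41-fold lower in P15 mutants (probe ILMN_2997068, adjusted p = 0.000619), Cpa3 3.74-fold lower (ILMN_2991799, adjusted p = 0.000378) and Mcpt4 2.72-fold lower (adjusted p = 0.000934). Tpsb2 had a log2 difference of -0.83 (adjusted p = 0.0918) and Cpa3 ILMN_1246690 one of -0.69 (adjusted p = 0.131). Hdc had 0.25 (95% interval -0.31 to 0.82, adjusted p = 0.584), so in neither genotype was an age change of Hdc called. The P10 controls of slides 3 and 4 enter the age difference of both genotypes, and the figures for mutants and controls are therefore not independent.

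**Figure D3:**
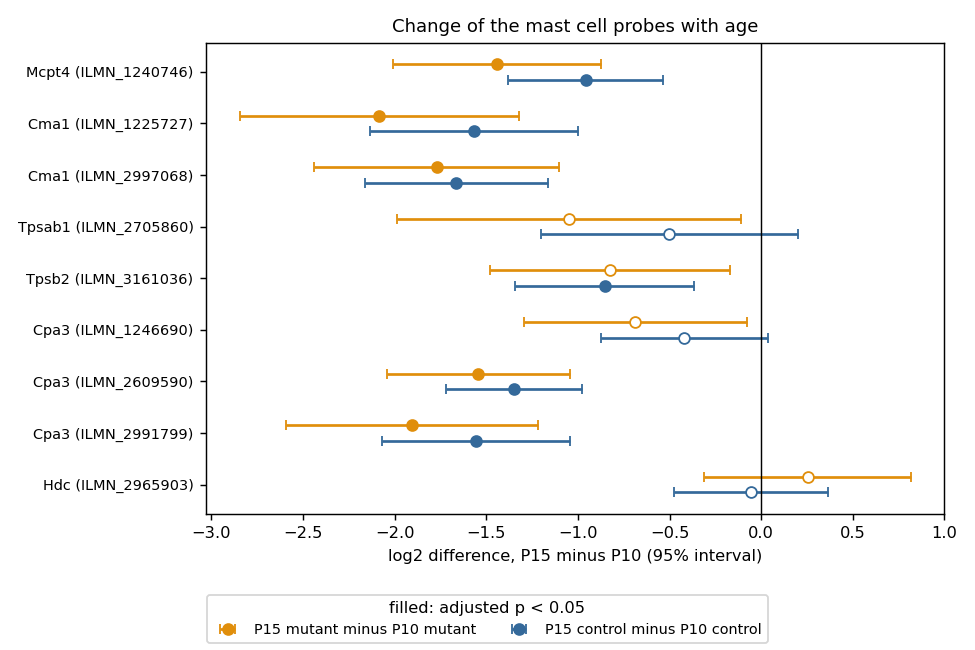
Log2 difference, P15 minus P10 (x axis), of the 9 tested probes (y axis) in mutants and in controls, with bars for the 95% interval and filled points for an adjusted p below 0.05. Both intervals of Hdc hold 0, while those of Mcpt4, Cma1 and Cpa3 by ILMN_2609590 and ILMN_2991799 lie below 0.

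Other genes known from mast cells were mostly near or below background. Of 11 other granule proteins 10 had a probe and 1 was tested, Srgn, the core protein that carries heparin, which was detected on 13 arrays and did not pass at P15 (0.20, adjusted p = 0.575) or at P10 (-0.15, adjusted p = 0.708). The mucosal type proteases Mcpt1 and Mcpt2, the basophil proteases Mcpt8 and Prss34, and Mcpt9, Cma2, Ctsg and Gzmb were detected on 0 arrays. Cma2, Mcpt1, Mcpt2 and Mcpt9 are the genes between Cma1 and Mcpt4 on chromosome 14 in the RefSeq table, and Mcpt8, Ctsg, Gzme, Gzmd and Gzmg, the next 5 genes past Mcpt4, were likewise detected on 0 arrays. Beside the tryptases on chromosome 17, Prss34, Prss28 and Prss29 were detected on 0 arrays.

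Of the genes for histamine breakdown, transport and receptors 1 of 9 was tested. This was Aoc1, the diamine oxidase that degrades histamine, detected on 7 arrays, 3 of P15 controls and 4 of P10 controls. It was called lower in mutants at P15 (adjusted p = 0.00227) and at P10 (adjusted p = 0.0302). As it passed the detection filter through the controls alone, these calls are given as descriptions. It was not well above background on any mutant array, and its mean signals were 5.42 in P15 mutants and 6.22 in P15 controls, and 4.85 in P10 mutants and 5.41 in P10 controls of the same slides. The histamine methyltransferase gene Hnmt was detected on 0 arrays. Slc18a2, the transporter that loads histamine into granules, was detected on 2 arrays and not tested.

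Among 15 genes for Kit signalling, mast cell cytokines and transcription factors 5 were tested. Mitf, a transcription factor of mast cells and melanocytes, was lower in P15 mutants (-0.75, adjusted p = 0.0171), being detected in 1 of 6 P15 mutants and 3 of 6 P15 controls. Kitl, the stem cell factor on which mast cells depend, was lower in P10 mutants (-0.50, adjusted p = 0.0048), and was detected on 0 P15 arrays. In P15 controls the mean signal of Kitl was 4.75, against 6.68 in all 10 P10 controls. Within slides 3 and 4 the age difference in controls was -2.16 (adjusted p = 2.71e-11). As Kitl passed the detection filter through P10 arrays alone, that call is given as a description. Gata2, which encodes a GATA factor of mast cell progenitors, gave -0.04 at P15 (adjusted p = 0.929) and 0.29 at P10 (adjusted p = 0.456). The Kit receptor itself was not analysed here.

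Of 12 genes of heparin synthesis 8 were tested. At P15 Hs6st1 (0.36, adjusted p = 0.021) and Ext2 (0.33, adjusted p = 0.0254) were higher in mutants and Extl3 was lower (-0.33, adjusted p = 0.00597), and 0 were called at P10. Of 8 eicosanoid genes 4 were tested, and Alox5ap, the activating protein of leukotriene synthesis, was higher in mutants at P15 (0.41, adjusted p = 0.00406) and at P10 (0.36, adjusted p = 0.0119). Among 14 further surface receptors and enzymes 5 were tested. Of these, Mrgprb2, a receptor for cationic secretagogues on mouse connective tissue mast cells, was lower in P15 mutants (-0.93, adjusted p = 0.0225). Rab27b, which takes part in granule release, was lower in mutants at P15 (-0.82, adjusted p = 0.000123) and at P10 (-0.58, adjusted p = 0.00477), and Cd63, a granule membrane protein of many cells, was higher in P10 mutants (0.31, adjusted p = 0.0444).

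Markers of other cell types moved in the same comparisons. Of 10 basophil and eosinophil markers all had a probe and each was detected on 0 arrays. Of 9 macrophage and Langerhans cell markers with a probe 6 were higher in mutants at P15 and 1, Cd207, was lower, and 6 were higher and 0 lower at P10. Their summed signal on the linear scale was 1602 to 3392 in P15 mutants against 1320 to 2210 in P15 controls, and 2556 to 5414 in P10 mutants against 1600 to 3535 in P10 controls of the same slides. Of 11 tested markers of dermal fibroblasts and matrix 1 was higher and 1 lower in P15 mutants, and 10 were higher in P10 mutants. Their sum was 18270 to 24410 in P15 mutants against 18110 to 23200 in P15 controls, and 50570 to 70790 in P10 mutants against 34710 to 44110 in P10 controls of the same slides. With a score of this list as a covariate 3 of the 10 probes were called at P15 and 0 at P10, where 10 of all tested probes were then called, and 0 lower with age in controls, where 224 of all were. With age, 8 of these 11 markers were lower in P15 controls than in P10 controls and all 11 in P15 mutants than in P10 mutants. Of 7 tested adipocyte markers 2 were lower in P15 mutants, 5 were higher in P10 mutants, 4 were lower with age in controls and all 7 with age in mutants. Their sum was 3418 to 5984 in P15 mutants against 4752 to 7324 in P15 controls, and 12870 to 20710 in P10 mutants against 6820 to 13920 in P10 controls of the same slides. Of 4 tested T cell markers Cd3d, Cd3e and Cd3g were lower and Thy1, which other skin cells make too, was higher in mutants at both ages. Of 9 tested endothelial markers 0 were called at either age. The part of macrophages, adipocytes and T cells in the members' differences was not tested.

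Skeletal muscle markers moved with the members too, mainly at P10 and with age, and their part in the differences was not tested beyond the fit below. Of all tested probes 8.94% were called higher in P15 mutants, 8.66% higher in P10 mutants and 10.7% lower with age in controls. Of the 19 tested muscle markers 2 were higher in P15 mutants and 11 in P10 mutants, and 9 were lower in P15 controls than in P10 controls. Their summed signal was 2132 to 60640 in P15 mutants against 2131 to 31240 in P15 controls, and 57220 to 105000 in P10 mutants against 17360 to 121200 in P10 controls of the same slides. The highest of these controls was P10 control 7. This control also lay in the mutants' range for both Cma1 probes, Tpsb2, and Cpa3 ILMN_2991799 and ILMN_1246690. Without it and P15 mutant 5 the counts called in mutants were 3 at P15 and 8 at P10, an alternative chosen after seeing the data. Among P15 mutants the highest muscle sums, 60640 and 43960, were those of mutants 1 and 2. These mutants were also the highest for Tpsb2, Tpsab1, Hdc, both Cma1 probes and Cpa3 ILMN_2609590. Mcpt4 was highest in P15 mutant 5 (9.07), which had the lowest muscle sum of the P15 mutants (2132), and nearly as high in mutant 1 (9.06). Cpa3 ILMN_2991799 was highest in P15 mutant 4 (9.18), with a sum of 4944, and nearly as high in mutant 1 (9.16). With a muscle score (the mean of centred log2 signals over the list) as a covariate, 1 of the 10 probes was called at P15 and 1 at P10. Over all 12834 tested probes 1268 were then called higher at P15 and 889 at P10, so the members' share was close to that of all probes at both ages. At P15 the called member was Hdc (0.85, adjusted p = 0.000403), and at P10 it was Mcpt4 (0.82, adjusted p = 0.0102). In the same fit all 9 tested probes stayed above 0 at both ages, from 0.07 to 0.85 at P15 and from 0.32 to 0.94 at P10, and Mcpt4, both Cma1 probes and Cpa3 ILMN_2609590 and ILMN_2991799 were called lower in P15 controls than in P10 controls, as were 1030 of all tested probes.

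**Figure D4:**
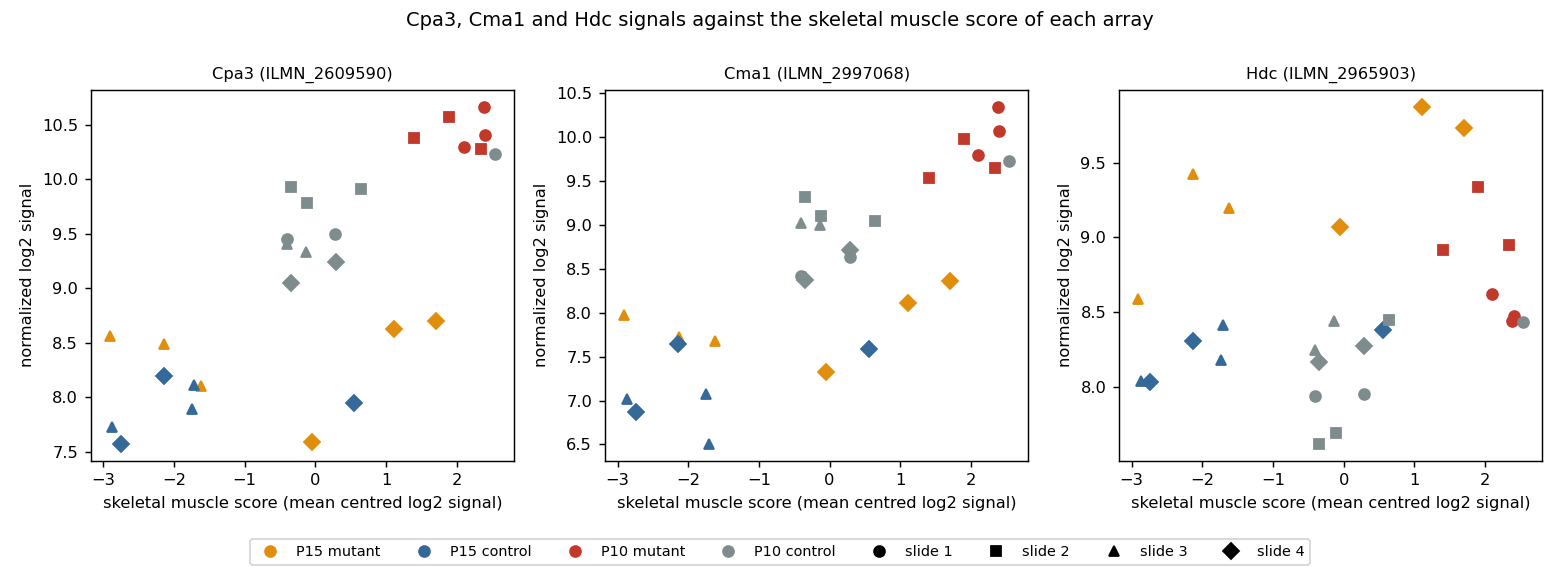
Normalized log2 signals (y axis) of Cpa3, Cma1 and Hdc against the skeletal muscle score of each array (x axis), coloured by group and shaped by slide. P10 control 7, at the highest score (2.54), lies within the P10 mutants for Cma1. It lies just below them for Cpa3 (10.23, probe ILMN_2609590) and for Hdc (8.43, against 8.44 in the lowest P10 mutant). At P15, Hdc lies above every P15 control in P15 mutants over scores from -2.91 to 1.71.

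After group and slide were fitted, the residuals of the members still varied together to different degrees over the 28 arrays. The residuals of the Cma1 probes had a Pearson r of 0.84 with each other, those of Cma1 ILMN_1225727 and Cpa3 ILMN_2609590 0.86, and those of Mcpt4 and Cpa3 ILMN_2609590 0.72. With Cpa3 ILMN_2991799, however, Mcpt4 had 0.20. Hdc had its highest value with Tpsb2 (r = 0.56) and its lowest with Cma1 ILMN_2997068 (0.18). It had 0.50 with Cpa3 ILMN_2991799, 0.41 with Cpa3 ILMN_2609590 and 0.22 with Mcpt4. The low r of Tpsab1 with the other members, at most 0.37, comes with a probe undetected on most arrays. These arrays share slides and normalization, and the values are descriptions.

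The genes outside the members whose residuals were most like the mean residual of the 6 tested members over 28 arrays were Pdk4 (Pearson r 0.84, Spearman rho 0.86), Cacng1 (0.80, 0.73), Art3 (0.78, 0.68), H6pd (0.78, 0.65) and Zfp521 (0.78, 0.60). Without the 2 arrays farthest from the median these r were 0.74, 0.68, 0.66, 0.70 and 0.68. Over all other genes the median r was -0.02 and the 95th percentile 0.43. On the signals themselves, which carry the group differences too, the nearest genes were Gpc3 (r = 0.94), Cox8b (0.92), Myoz2 (0.91), Fhl1 (0.91) and Kcne1l (0.90). Cacng1, Cox8b and Myoz2 are genes of skeletal or striated muscle. On that scale Hdc itself had r = 0.35 with the members' mean, against 0.86 to 0.93 for Tpsb2, Mcpt4, Cma1 and Cpa3, although that mean includes each of them. On the residuals Hdc had r = 0.63, against 0.65 for Cpa3, 0.71 for Cma1 and Mcpt4, 0.83 for Tpsb2 and 0.54 for Tpsab1.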

How the data were processed

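Total RNA of dorsal skin was biotin-labelled and hybridised to 28 Illumina BeadChip arrays, per the labels. Per the file headers, every array has 2 columns in the deposited table, the mean bead intensity of a probe and its detection p-value. Intensity differed in median between arrays, so these deposited values were taken as not normalized. The software was GenomeStudio, per the submitters' processing notes. The authors' own processed intensity values, whose making is not stated, served as an alternative, floored at 16 (25.6% of values were below 0). No other depth is known: the number of arrays limits precision.

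Deposited signals were corrected by normexp from the detection p-value with neqc (limma 3.58.1, R 4.3.3; offset 16), then scaled to common quantiles and converted to log2. Probes with detection p below 0.01 on at least 6 arrays were tested with lmFit and eBayes on group and slide (21 residual degrees of freedom) and Benjamini-Hochberg adjustment over 12834 probes. On simulated data for the P10 comparison, over those 12834 probes, 85% of 100 probes changed by 1 (log2) and 29% of 100 changed by 0.5 were called, with 4 false calls. Muscle and matrix scores are means of centred log2 signals. Probes of a gene are reported separately for members; list genes are represented by their brightest tested probe.

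The members and all lists were chosen with earlier results of these data known. All member probes, up to 4 called genes per list and comparison, defining genes that did not pass, and the 5 most similar genes were to be named. Whether replicates were separate animals is not in the labels, and p-values then cover the spread among the arrays only, which may be technical. Same-numbered mutants and controls were not treated as pairs in the main fit. Their residuals correlated from -0.20 to 0.41, which cannot show whether they were pairs. Probe symbols came from the platform annotation, promoters from RefSeq (GRCm38.p6). Figures were drawn with matplotlib.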

Additional observations from a re-analysis of the deposited data

Results flagged for a closer look

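Over 40 sets of values (10 probes in 4 groups) 1 sample lay apart from its group by Dixon's test, which flags about 1 group in 20 by chance. Tpsab1 read 5.85 in P15 control 2, whereas the other 5 P15 controls lay between 4.77 and 5.09. The probe was not detected on that array, nor on any other P15 control.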

How the results depend on the processing

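The counts of probes called in mutants were 3 at P15 and 8 at P10, those called lower with age 6 in controls and 5 in mutants, and 0 changed their mutant effect. One or more of them moved by more than 1.5 times under the following alternatives. Median scaling gave 8 for age in mutants, as did no slide term, and 1 probe a gene gave 3. With the muscle score as covariate the counts were 1 at P15 and 1 at P10. With the dermal matrix score they were 0 at P10, 0 for age in controls and 0 for age in mutants, where of all 12834 probes 10 were called at P10, 323 for age in controls (224 of them lower) and 0 for age in mutants. On slide 2 alone 5 were called at P10, on slide 3 alone 0 at P15, on slide 4 alone 1 at P15 and 0 for age in controls. Leaving out each array in turn gave 2 to 5 at P15, the 2 without P15 control 4 and the 5 without P15 mutant 3, 5 to 8 at P10, the 5 without P10 control 6, 5 to 6 for age in controls, 5 to 7 for age in mutants and 0 for the change of the effect. Median scaling shifted the median of all probes by -0.23 for age in controls, where 270 probes were called higher and 2884 lower against 1344 and 1378 before, and by -0.15 in mutants, with 166 higher and 1032 lower against 699 and 774; at P15 it gave 1016 higher and 635 lower against 1148 and 1358.

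With the replicate number as a block, 5 of the 10 probes were called at P15, 0 at P10, 5 for age in controls and 0 for age in mutants, and of all probes 5 were called at P10. At P10 no mutant shared a slide with the control of its number, the SE was 0.32 to 0.83, and 4 differences turned: Tpsab1 -0.90, Tpsb2 -0.61, Cpa3 ILMN_1246690 -0.91 and Hdc -0.0218. The block also turned the change of the effect for Mcpt4 (0.19), Cma1 ILMN_2997068 (0.215), Tpsab1 (1.67) and the Cpa3 probes (1.03, 0.28 and 0.32), and age for Hdc in controls (0.13) and for Tpsab1 (1.59), Tpsb2 (0.87) and Cpa3 ILMN_1246690 (0.98) in mutants.

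Other sign changes were of differences that were not called. For age in controls Hdc turned with no slide term (0.11), with slide as a random block (0.0272), with the muscle score (0.29) and on slide 4 alone (0.0192), and ran from -0.13 to 0.03 when each array was left out. For the change of the effect, Tpsb2 turned under median scaling (-0.17), no background correction (-0.0774), the raw median as covariate (-0.0157) and without P10 control 7 and P15 mutant 5 together (-0.0294), the last pair of alternatives chosen after seeing the data, and ran from -0.18 to 0.18 over left-out arrays. Cma1 ILMN_2997068 and Cpa3 ILMN_2609590 turned under median scaling (0.0092 and 0.0366), with the Cma1 probe running from -0.25 to 0.0382 over left-out arrays. The matrix score turned Mcpt4 (0.0613), both Cma1 probes (0.022 and 0.29) and Hdc (-0.27, and -0.95 for age in mutants). On slide 3 alone Tpsab1 was -0.007 at P15 and on slide 4 alone Cpa3 ILMN_2991799 was -0.0157. The causes were not tested.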

Other observations

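Melanocytes, like mast cells, need Kit and Mitf. Of 7 tested melanocyte markers 6 were higher in P15 mutants, Oca2 (1.30, adjusted p = 0.000643), which sets melanosome pH, and the pigment enzyme gene Dct (1.11, adjusted p = 6.29e-06) among them, and 1, Tyrp1 (0.76, adjusted p = 0.0466), was higher in P10 mutants. All 7 were lower in P15 controls than in P10 controls. The mutant effect was larger at P15 than at P10 for 2 of the 7, Dct (adjusted p = 0.00345) and Mlana (adjusted p = 0.027).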
